A study of Homo sapiens with 6 samples.

Results

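Genes of major histocompatibility complex (MHC) class I antigen presentation were read out in libraries labelled as HCT-116 cells, a human colon cancer line, with either a GOLPH3 expression construct or the empty vector. The set comprised 9 genes, found by their symbols among the 60546 gene identifiers of the expression table: the class I heavy chain genes HLA-B, HLA-C and HLA-E, the light chain gene B2M, the peptide transporter genes TAP1 and TAP2, the loading gene TAPBP, and the immunoproteasome subunit genes PSMB8 and PSMB9. The study overexpressed GOLPH3, a protein of the Golgi membrane, to ask how it acts in colon cancer metastasis. There were 3 libraries labelled GOLPH3 (titles with P8, P12 and P13) and 3 labelled Vector (P12, P11 and P13). All 6 were made from total RNA of HCT-116 cells labelled wild type, grown in serum-containing medium and lysed in Trizol, and per the study's methods both lines carried the PMSCV backbone, stably introduced by infection. Per the study's methods the 3 samples of a group were different generations of 1 stable line, so the p-values measure the spread between generations of that line, and the meaning of the P numbers was not given in the sources used here.

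MHC class I molecules display short peptides from a cell's own proteins at its surface, where cytotoxic T cells and natural killer cells inspect them. Proteasomes cut the proteins, and under interferon-gamma the constitutive catalytic subunits are replaced by the immunoproteasome subunits, among them PSMB8 and PSMB9. The TAP1-TAP2 transporter carries the peptides into the endoplasmic reticulum, tapasin (TAPBP) holds the transporter and the empty heavy chain together, and the heavy chain reaches the surface with beta-2-microglobulin (B2M). The genes share interferon-responsive promoters, and NLRC5, the RFX complex, NF-kB and IRF1 are among their known regulators. Loss of this machinery is a familiar route by which colon cancers escape T cells.

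Each library held between 15708846 and 21900764 reads assigned to genes, and each deposited value was a whole number of reads divided by the scaling factor of the library, here called normalized reads. The limit that a count of 0 allows, 3 reads, was 2.47 to 3.29 normalized reads. The overexpressed gene did not separate the groups by its label. GOLPH3 itself was at 1428 ± 183 normalized reads in the GOLPH3-labelled libraries and 1777 ± 267 in the Vector-labelled ones (SD, n = 3 each, log2 difference -0.31, adjusted p = 0.609 by limma). The study reported the overexpression in HCT-116 at the protein level, by western blot, which RNA does not measure. In these libraries the transcript did not bear out the labels, and the libraries are named by their labels throughout. Among 15 markers of colon epithelium, EPCAM and the keratins were abundant, and KRT18, KRT19, CLDN4 and ELF3 were higher in the GOLPH3-labelled libraries, whereas CDX1, VIL1, LGALS4 and CEACAM5 were near 0. CDX2 had reads in both groups, with 246.9, 261.4 and 357.6 normalized reads in the GOLPH3-labelled libraries and 414.8, 184.05 and 896.8 in the Vector-labelled ones. Its log2 difference was -0.52 (adjusted p = 0.636 by limma), and that of the sparse CEACAM6 was -1.79 (adjusted p = 0.301). Of 10 genes listed for embryonic kidney lines, 9 were tested and 8 were called lower in the GOLPH3-labelled libraries, beside 4.12% of all genes, IRS4, NEFM and UCHL1 among them. Of the 9, 5 passed the filter on low values through the Vector-labelled libraries alone, which set their direction. Whether both labelled groups hold the labelled cells was not tested. Changes are given as log2 differences between the GOLPH3-labelled libraries and the Vector-labelled ones, on the scale of log2(normalized reads + 1), with limma's standard error and a p adjusted by Benjamini-Hochberg over 26536 genes tested. That test called 1346 genes, 5.07% of those tested, of which 1093 (4.12%) were lower and 253 (0.953%) higher in the GOLPH3-labelled libraries.

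Of the 9 genes, 8 lie on chromosome 6, within the MHC, and B2M lies on chromosome 15 (GRCh38, 44711487 to 44718877, plus strand). The chromosome 6 stretch from the start of HLA-E to the end of TAPBP (chr6:30489467-33314387) held few reads in any library. Of its 135 protein-coding genes, 80 (59.3%) were at 0 in every library and 97 (71.9%) had a mean below 1 normalized read, while the corresponding share at 0 was 15.2% over the 905 genes of the rest of chromosome 6 and 12.3% over the 19726 of the rest of the genome. The emptiness included genes that every cell uses. RPS18, a protein of the small ribosomal subunit encoded in the stretch, had a mean of 0.321 normalized reads, against a median of 10708 for the 76 other ribosomal protein genes. TUBB, a beta-tubulin, had at most 1.72 normalized reads in a library, and GNL1 and FLOT1 were listed at 0 in all 6. Only 4 protein-coding genes of the stretch reached a mean of 100: HLA-B, HLA-C, PRRC2A and BRD2, a bromodomain protein whose mean was 693.

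**Figure D1:**
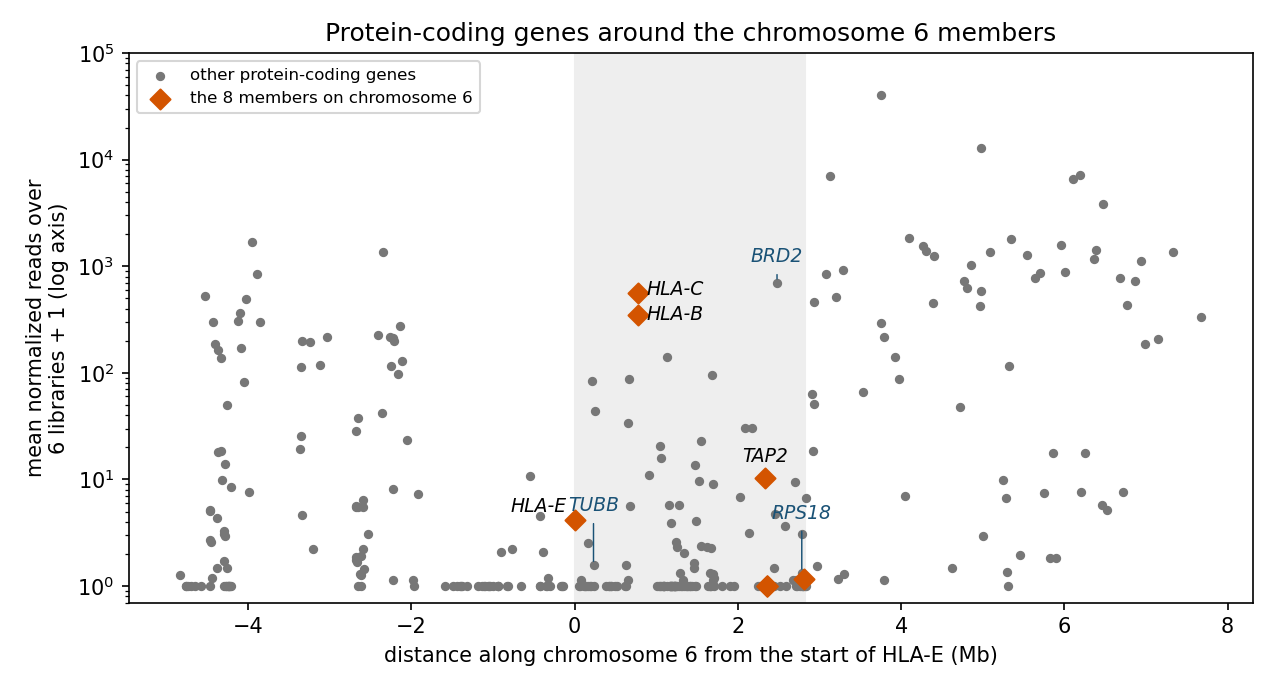
Mean normalized reads over the 6 libraries plus 1 (log axis) of each protein-coding gene against the distance of its start from the start of HLA-E, in megabases, with the stretch between the outermost members shaded. In the shaded stretch 71.9% of the genes have a mean below 1 (points at or near the bottom), against 17.1% in the 5 Mb that follow it, and HLA-B and HLA-C stand above nearly all their neighbours.

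This low coverage bears on every chromosome 6 member. A value of 0 there could not be read as an absence of the transcript, since RPS18 was also at or near 0, and how the authors' counting treated reads with more than 1 alignment was not given in the sources used here. It was not confined to chromosome 6: PSMB3, a core proteasome subunit gene of chromosome 17, had 1 read in 1 library, and the ribosomal protein gene RPS9 had a mean of 33.7. RPS9 had 9.66, 15.7 and 10.7 normalized reads in the GOLPH3-labelled libraries and 30.9, 26.3 and 109.0 in the Vector-labelled ones. Its groups did not overlap, but it was not called (log2 difference -1.84, adjusted p = 0.125 by limma). Whether the share of reads counted differed between the groups was not tested. The 5 Mb before the stretch were also sparse, with 37.8% of 127 protein-coding genes at 0 in every library, and the 5 Mb after it were not, with 4.29% of 70.

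The members the results turn on are shown by the 250 bases before their RefSeq start sites (GRCh38.p14), which carry the short elements their regulators recognise. HLA-B is at chr6:31357180-31357429, HLA-C at chr6:31272093-31272342 and TAP2 at chr6:32838740-32838989, all on the minus strand, and B2M is at chr15:44711267-44711516 on the plus strand. Each is written 5′ to 3′ in the direction of its gene, with capitals marking the IRF core AANNGAAA, the letters interferon regulatory factors prefer, on either strand.
HLA-B: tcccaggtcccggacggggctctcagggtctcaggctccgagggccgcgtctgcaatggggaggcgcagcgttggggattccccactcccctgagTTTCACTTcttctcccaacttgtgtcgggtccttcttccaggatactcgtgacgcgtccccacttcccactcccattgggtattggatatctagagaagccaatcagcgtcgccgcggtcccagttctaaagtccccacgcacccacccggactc
HLA-C: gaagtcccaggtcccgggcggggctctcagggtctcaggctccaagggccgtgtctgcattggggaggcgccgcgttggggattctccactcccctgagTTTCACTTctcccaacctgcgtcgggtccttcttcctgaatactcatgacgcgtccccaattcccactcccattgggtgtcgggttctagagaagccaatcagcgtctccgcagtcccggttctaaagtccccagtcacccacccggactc
B2M: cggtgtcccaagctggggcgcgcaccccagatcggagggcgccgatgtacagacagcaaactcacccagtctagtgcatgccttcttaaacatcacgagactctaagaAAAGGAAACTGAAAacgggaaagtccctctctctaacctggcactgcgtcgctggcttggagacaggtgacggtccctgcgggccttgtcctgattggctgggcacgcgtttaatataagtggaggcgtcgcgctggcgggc
TAP2: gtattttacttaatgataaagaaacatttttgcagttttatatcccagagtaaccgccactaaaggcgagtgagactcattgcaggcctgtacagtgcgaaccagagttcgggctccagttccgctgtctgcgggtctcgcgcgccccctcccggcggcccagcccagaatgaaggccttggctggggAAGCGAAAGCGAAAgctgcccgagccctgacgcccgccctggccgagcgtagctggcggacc
In HLA-B the IRF core began 155 bases before the start and in HLA-C 151 bases before it, and in B2M and TAP2 a pair of overlapping matches formed 1 run. Over the RefSeq promoters, 8 of the 9 members were matched, with 10 windows in all. The IRF core was in 6 of these windows, against 20.3% of all 35116 promoter windows of the same length. The PSMB8 and PSMB9 windows and the TAP1 window at chr6:32852762-32853011 lacked it. The CCAAT box, searched as CCAAT on both strands, was in 5 of 10 against 32% of all, and the interferon-gamma element TTCNNNGAA in 2 of 10 against 6.57%. The HLA-B and HLA-C windows were identical at 226 of 254 aligned positions (89%), so these heavy chain genes have closely related promoters. These matches describe the letters and do not show that a factor was bound.

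HLA-B and HLA-C, classical heavy chains that present peptides to CD8 T cells, were both lower in the GOLPH3-labelled libraries, HLA-B to a level of a few reads. HLA-B (ENSG00000234745, chr6:31269491-31357188, minus strand) had 6.44, 4.12 and 3.20 normalized reads in the GOLPH3-labelled libraries (replicates 1, 2 and 3) and 432.3, 313.3 and 1305.3 in the Vector-labelled ones. The groups did not overlap, and the GOLPH3-labelled libraries rested on 6, 5 and 3 reads. The log2 difference was -6.69 (SE 0.56, 95% confidence interval -7.91 to -5.48, adjusted p = 1.41e-05). It was -6.40 between the P12 libraries and -8.28 between the P13 libraries, 1 library against 1 with no test. HLA-B passed the limma, edgeR and DESeq2 tests, and it stayed past the threshold when any 1 library was left out and when both P12 libraries were.

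HLA-C (ENSG00000204525, chr6:31268749-31272130, minus strand) had 240.5, 60.2 and 17.1 normalized reads in the GOLPH3-labelled libraries and 916.1, 386.7 and 1739.6 in the Vector-labelled ones. The groups again did not overlap, but the GOLPH3-labelled libraries spread 14.1-fold among themselves, where those of HLA-B spread 2.01-fold. The log2 difference was -3.73 (SE 0.79, 95% confidence interval -5.44 to -2.01, adjusted p = 0.0151), with -3.91 between the P12 and -6.59 between the P13 libraries. The call was lost without Vector replicate 3 (log2 difference -3.21, adjusted p = 0.0869) and when both P12 libraries were left out (-3.64, adjusted p = 0.150). In bulk RNA, fewer cells with the transcript and less of it per cell cannot be told apart. What share of the HLA-B and HLA-C reads was counted, in a stretch of low coverage, is not known either, nor whether that share was the same in both groups.

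The ratio between these heavy chain genes also moved with the label. HLA-B held 0.0268, 0.0685 and 0.188 reads for each HLA-C read in the GOLPH3-labelled libraries, and 0.472, 0.810 and 0.750 in the Vector-labelled ones. The ratio, which is free of the scaling between libraries, was thus lower in each GOLPH3-labelled library than in any Vector-labelled one. Per kilobase of annotated exon, HLA-C averaged 404.5 normalized reads in the Vector-labelled libraries, B2M 338.0 and HLA-B 224.1, a scale on which the spread between the 3 libraries covered the distance between neighbours. In the GOLPH3-labelled libraries the same quantity was 252.5 for B2M, 42.2 for HLA-C and 1.50 for HLA-B. HLA-B and HLA-C lie in the stretch of low coverage and B2M does not. The order of these genes on this scale may therefore not be that of their transcripts.

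HLA-E and B2M, which make up the remaining class I chains, did not pass the test. HLA-E (ENSG00000204592, chr6:30489467-30494205, plus strand), the nonclassical heavy chain that engages the NKG2A receptor of natural killer cells, had 1.07, 0 and 8.54 normalized reads in the GOLPH3-labelled libraries and 2.06, 2.19 and 5.15 in the Vector-labelled ones. The highest library had 8 reads, the groups overlapped, and the log2 difference of -0.53 had a 95% confidence interval of -2.37 to 1.30 (adjusted p = 0.795). With so few reads counted, changes within that interval could not be told from none. B2M (ENSG00000166710), the shared light chain, had 1270, 1393 and 1942 normalized reads in the GOLPH3-labelled libraries and 2140, 2419 and 1605 in the Vector-labelled ones. The groups overlapped through Vector replicate 3, the lowest of its group for B2M and the highest for HLA-B and HLA-C. The log2 difference of B2M was -0.42 (SE 0.29, 95% confidence interval -1.07 to 0.22, adjusted p = 0.503), an interval that did not overlap those of HLA-B and HLA-C. For each B2M read HLA-B held at most 0.00507 reads in the GOLPH3-labelled libraries and 0.202, 0.130 and 0.813 in the Vector-labelled ones.

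**Figure D2:**
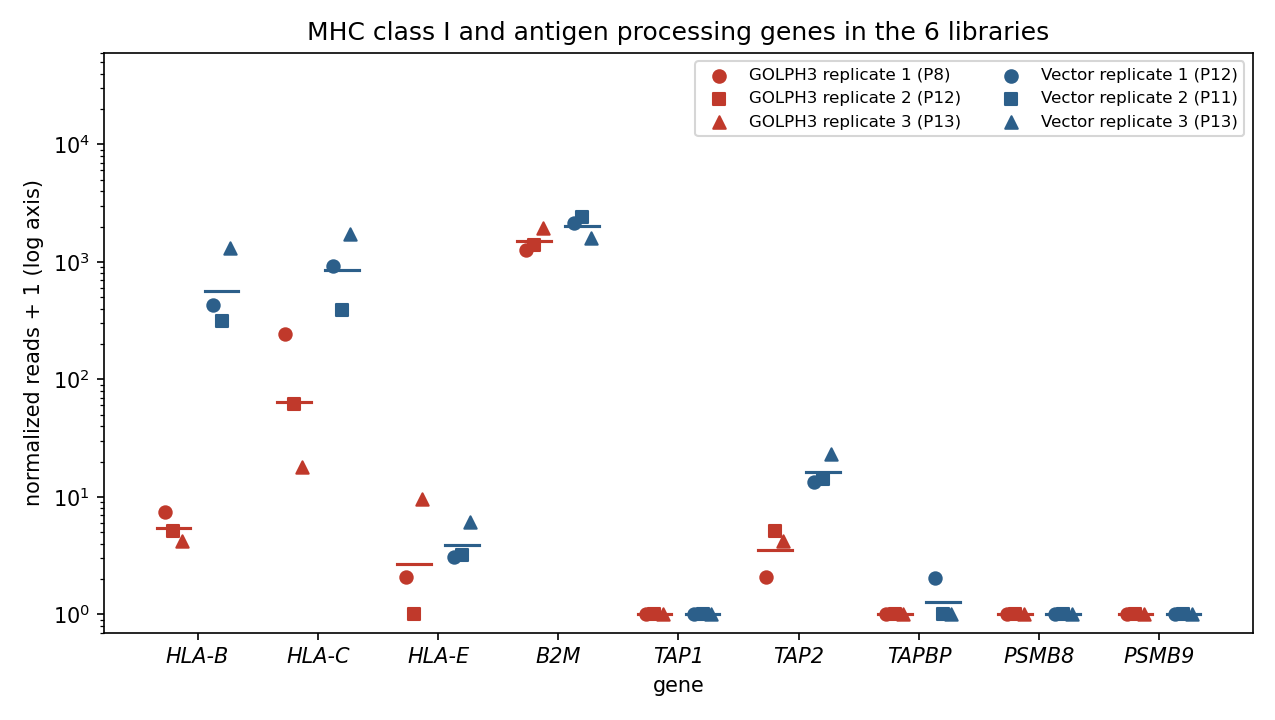
Normalized reads plus 1 (log axis) of the 9 genes in each library, red for the 3 GOLPH3-labelled libraries and blue for the 3 labelled Vector, with the marker shape giving the replicate and a bar at the mean of the log2 values of each group. HLA-B, HLA-C and TAP2 do not overlap between the groups, B2M lies between 1270 and 2419 in all 6 libraries, and TAP1, PSMB8 and PSMB9 are at 0 throughout.

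The transporter, loading and immunoproteasome genes gave almost no reads. TAP2 (ENSG00000204267, chr6:32821833-32838780, minus strand), the TAP subunit that pairs with TAP1, had 1.07, 4.12 and 3.20 normalized reads in the GOLPH3-labelled libraries and 12.4, 13.1 and 22.3 in the Vector-labelled ones, from at most 26 reads in a library. The groups did not overlap and the log2 difference was -2.21 (SE 0.63, 95% confidence interval -3.59 to -0.83), but the adjusted p of 0.0719 missed the threshold, as it did under each alternative with a test, where it ran from 0.0569 to 0.304. In the annotation 32.3% of the exon bases of TAP2 also belong to AL669918.1, a readthrough gene on the same strand that was listed at 0 in all 6 libraries.

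TAP1 (ENSG00000168394, chr6:32845209-32853978), PSMB8 (ENSG00000204264, chr6:32840717-32844703) and PSMB9 (ENSG00000240065, chr6:32844136-32859585), which sit side by side, were listed at 0 in every library. TAPBP (ENSG00000231925, chr6:33299694-33314387) was listed at 0 in 5 libraries and had 1 read in Vector replicate 1. No level or fold is given for these 4 genes, because RPS18, less than a megabase from PSMB9, was listed at or near 0 as well. In the annotation 20.6% of the exon bases of PSMB8 and 9.49% of those of TAP1 are also covered by the antisense gene PSMB8-AS1, which was at 0 too, and 18.9% of the exon bases of HLA-B are shared, almost all with AL671883.2, a pseudogene on the other strand that had 1 read in 1 library. Whether the counting used the strand was not given in the sources used here.

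In all, 5 of the 9 genes passed the filter on low values, which asked for at least 1 normalized read in 3 libraries, and 2 of these 5 were called lower and 0 higher by limma, beside 4.12% called lower and 0.953% called higher over all genes. At an unadjusted p under 0.05, 3 were lower and 0 higher, beside 10.1% and 7.51% of all genes. EdgeR and DESeq2 each called 2 lower and 0 higher, beside 5.1% lower and 1.48% higher over all genes by edgeR and 6.05% and 2.63% by DESeq2. The 3 genes whose groups did not overlap, each lower in the GOLPH3-labelled libraries, stand beside 12.8% of all genes tested. The median log2 difference of the 5 was -2.21 and that of all genes tested 0.02. An exact two-sided permutation test on 3 against 3 libraries cannot go below 0.1, which HLA-B, HLA-C and TAP2 each reached.

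The rest of the stretch around the members held more genes called lower than higher. Of its 235 other genes, 174 were at 0 in every library, 31 passed the filter, and 10 of these were called, 9 lower and 1 higher, beside 4.12% and 0.953% over all genes. 6 of the 31 passed through the Vector-labelled libraries alone, so their direction was set by the filter, and 5 of the 9 called lower were at 0 in every GOLPH3-labelled library. HLA-DQB1, a class II chain, was listed at 0 in the 3 GOLPH3-labelled libraries and had 48.4, 25.2 and 101.3 normalized reads in the Vector-labelled ones, at least 19.7-fold lower against the mean 3-read limit of the group. HLA-DRB1, a class II chain that presents peptides to CD4 T cells, had 0, 0.82 and 1.07 against 56.6, 16.4 and 100.4, at least 19.5-fold lower. The same bound was 10.1-fold for NFKBIL1, 6.40-fold for the natural killer ligand gene MICA, 3.95-fold for HLA-DRB5, 3.11-fold for POU5F1 and 2.49-fold for HLA-DMA. HLA-DQB1, NFKBIL1, HLA-DRB5, POU5F1 and HLA-DMA were among the 6 that passed through the Vector-labelled libraries alone, so their bounds are no support for a direction. All these bounds are on counted reads in a stretch of low coverage.

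Genes of the stretch outside antigen presentation were among them. TCF19, a growth-regulated nuclear protein gene, had 2.15, 3.30 and 10.7 normalized reads in the GOLPH3-labelled libraries and 146.2, 64.6 and 289.2 in the Vector-labelled ones (log2 difference -4.71, SE 0.67, adjusted p = 0.000956). PRRC2A, an RNA-binding protein gene, had 14.0, 15.7 and 16.0 against 211.0, 62.4 and 522.6 (log2 difference -3.57, SE 0.65, adjusted p = 0.00568). MICA lost its call without Vector replicate 3 (adjusted p = 0.0770), with both P12 libraries left out (0.0837) and with a pseudocount of 0.1 (0.0526), HLA-DMA without any 1 of the GOLPH3-labelled libraries (0.0606 to 0.101), and both TNXB and PRRC2A when both P12 libraries were left out (0.117 and 0.0926). The gene called higher was TNXB, an extracellular matrix protein, with 34.4, 18.1 and 64.0 against 6.18, 2.19 and 7.72 (log2 difference 2.59, SE 0.65, adjusted p = 0.0410), and its call was lost without any 1 library other than GOLPH3 replicate 2. BRD2 did not separate the groups, with 302.7, 602.8 and 850.8 against 454.9, 485.3 and 1464.1.

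Outside the stretch most genes of the antigen presentation pathway had reads, and few passed the test. A list of 72 further pathway genes held 65 that were tested, of which 5 were called lower and 0 higher by limma, beside 4.12% called lower over all genes. 4 of the 5 were the stretch genes HLA-DQB1, HLA-DRB1, HLA-DMA and MICA, and 3 of the 65, HLA-DQB1, HLA-DMA and the uncalled HLA-DQA1, passed the filter through the Vector-labelled libraries alone, which set their direction. Of the 60 pathway genes tested outside the stretch, 2 were lower and 2 higher at an unadjusted p under 0.05, beside 10.1% and 7.51% of all genes. EdgeR called 1 lower and 0 higher, beside 5.1% and 1.48%, and DESeq2 2 lower and 1 higher, beside 6.05% and 2.63%. Limma called 1 of the 60 lower and 0 higher. The 1 gene was RFXAP, a subunit of the RFX complex that binds class I and class II promoters, with 106.3, 95.7 and 71.5 normalized reads in the GOLPH3-labelled libraries and 245.0, 214.7 and 301.2 in the Vector-labelled ones (log2 difference -1.47, SE 0.35, adjusted p = 0.0311). Its groups did not overlap, and its adjusted p rose above the threshold without GOLPH3 replicate 2 (0.0697), without GOLPH3 replicate 3 (0.141), without Vector replicate 1 (0.162), without Vector replicate 3 (0.138), with both P12 libraries left out (0.346), with the replicate number as a block (0.0695), with quantile scaling (0.0508) and with the filter in every library (0.0629). With the P number as a block limma called 16 genes of the pathway, 8 lower and 8 higher, beside 22.9% of all genes tested.

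NLRC5 and IRF1 did not pass the test. NLRC5, the class I transactivator, had 308.1, 281.2 and 359.7 normalized reads in the GOLPH3-labelled libraries and 170.9, 198.3 and 253.2 in the Vector-labelled ones (log2 difference 0.62, SE 0.32, adjusted p = 0.354), so its groups did not overlap and its level lay above that of the Vector-labelled libraries. IRF1, the interferon-induced factor that binds the IRF core, had a log2 difference of 0.50 (SE 0.43, adjusted p = 0.600). Among 8 interferon receptor and signalling genes none was called by limma. Before adjustment, beside 7.51% of all genes higher and 10.1% lower at p under 0.05, 1 was higher and 0 lower. It was SOCS1, the feedback inhibitor of interferon signalling, with 95.5, 114.6 and 152.7 against 55.6, 18.6 and 36.0 (log2 difference 1.79, SE 0.48, adjusted p = 0.0553), which DESeq2 called higher and edgeR did not. The receptor chain gene IFNGR2 had a log2 difference of 0.89 (SE 0.45, adjusted p = 0.334).

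Proteasome genes outside the stretch were plentiful. PSMB5, PSMB6 and PSMB7, the constitutive subunits that immunoproteasome subunits replace, had log2 differences of 0.49, 0.41 and 0.14 (adjusted p = 0.508, 0.547 and 0.852), and PSMB5 was between 1366 and 3832 normalized reads. PSMB10, the immunoproteasome subunit encoded outside the MHC, was low but present, at 23.6, 52.0 and 43.8 in the GOLPH3-labelled libraries and 5.15, 8.76 and 37.8 in the Vector-labelled ones (log2 difference 1.55, SE 0.70, adjusted p = 0.275). It was therefore detected in libraries in which PSMB8 and PSMB9 were listed at 0. The proteasome activator genes PSME1 and PSME2, also interferon-inducible, had log2 differences of 0.22 and 0.13 (adjusted p = 0.738 and 0.851). Of 10 regulators and 10 core subunits tested, limma, edgeR and DESeq2 called none. At an unadjusted p under 0.05 there was 1 regulator, higher, and no core subunit, beside 7.51% of all genes higher and 10.1% lower. Of the core subunits the smallest p-values were those of PSMA2 (log2 difference -0.69, adjusted p = 0.445) and PSMA4 (-0.49, adjusted p = 0.483).

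Loading and trimming gave the same picture. Of the 8 genes of the list none passed limma, edgeR or DESeq2, nor an unadjusted p of 0.05. CANX, the chaperone of new heavy chains, was between 13951 and 33239 normalized reads (log2 difference -0.56, adjusted p = 0.409), and ERAP2, which trims peptides in the endoplasmic reticulum, had a log2 difference of -0.67 (adjusted p = 0.383). Among the 5 tested class I-like genes limma and edgeR called none. At an unadjusted p under 0.05, 1 was lower, beside 10.1% of all genes, and DESeq2 called 1 lower, beside 6.05%. CD1D, which presents lipids, had 3.22, 1.65 and 2.13 against 23.7, 2.19 and 48.1 (log2 difference -2.26, adjusted p = 0.209), and HFE, the iron-regulating class I-like gene, had a log2 difference of 0.88 (adjusted p = 0.326).

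**Figure D3:**
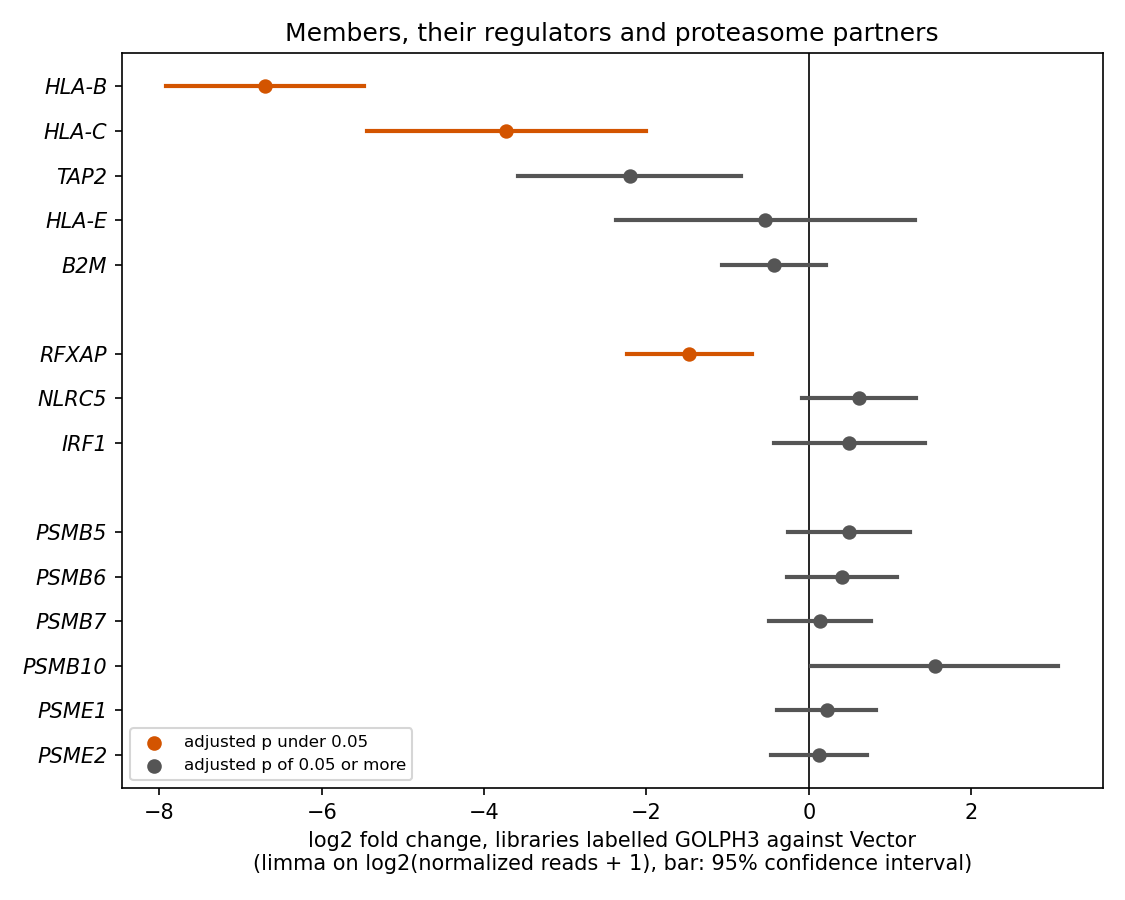
Log2 fold change of the GOLPH3-labelled libraries against the Vector-labelled ones, with limma's 95% confidence interval, for the 5 members that passed the filter, 3 transcriptional regulators and 6 proteasome partners, orange where the adjusted p is under 0.05. HLA-B (-6.69), HLA-C (-3.73) and RFXAP (-1.47) are orange, and the intervals of B2M, NLRC5, IRF1 and PSMB5 to PSMB7 span 0.

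Interferon-stimulated genes, which share the IRF core with the class I promoters, were lower in part. Of 21 in the list 20 were tested, and limma called 5 lower (beside 4.12% of all genes) and 0 higher. At an unadjusted p under 0.05, 8 were lower and 1 higher, beside 10.1% and 7.51% of all genes. EdgeR called 4 lower and 0 higher, beside 5.1% and 1.48%, and DESeq2 7 lower and 0 higher, beside 6.05% and 2.63%. IFIT1, an antiviral RNA-binding protein, had 997, 1736 and 1363 normalized reads in the GOLPH3-labelled libraries and 6257, 6726 and 5006 in the Vector-labelled ones (log2 difference -2.16, SE 0.30, adjusted p = 0.000653). IFIT3 (-2.38) and IFI44 (-2.80) fell with it under each alternative with a test, as IFIT1 did. IFIT2 (-1.92, adjusted p = 0.0325) and GBP1 (-2.71, adjusted p = 0.0189), a guanylate-binding protein, were called as well, but GBP1 had at most 20.8 normalized reads, and each lost its call when single libraries of either group were left out, with adjusted p up to 0.144 for IFIT2 and 0.107 for GBP1. ISG15 overlapped between the groups, with 2318, 9006 and 12865 against 16413, 5334 and 8301.

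Within the Vector-labelled libraries, HLA-B and HLA-C were highest in replicate 3, then replicate 1, then replicate 2. That order was also found in 8 of the 9 genes of the stretch called lower and in 25.1% of all genes tested, but in 61.9% of the 1093 genes called lower, so it was common to the genes that separated the groups. Markers listed for embryonic kidney lines separated the groups too, but 4 of the 10 had that order within the Vector-labelled libraries. Of the 10, 9 were tested and 8 were called lower in the GOLPH3-labelled libraries, beside 4.12% of all genes, and 5 of the 9 passed the filter through the Vector-labelled libraries alone, which set their direction. PAX2 was not called (log2 difference 0.17) and INA was at or near 0 in both groups. The summed level of the 10 was 144.1 to 158.3 normalized reads in the GOLPH3-labelled libraries, where PAX2 gave 112.2 to 134.2 of it, and 5024 to 12791 in the Vector-labelled ones. IRS4, NEFM and UCHL1 were at 0 in all 3 GOLPH3-labelled libraries, and IRS4, an insulin receptor substrate, had 1412, 1006 and 4831 in the Vector-labelled ones. For each IRS4 read HLA-B held 0.306, 0.312 and 0.270 reads there and HLA-C 0.649, 0.385 and 0.360, where HLA-B itself spread 4.17-fold and HLA-C 4.50-fold. IRS4 was chosen for this ratio after its values were seen, so the ratio is not a test. Over the Vector-labelled libraries the called marker UCHL1 spread 4.23-fold. The called markers NEFL, NEFM, CDH2, VIM, LIN28B and EYA1 spread only 1.14-fold to 2.64-fold there. The ratio of HLA-B to any of those with the smaller spread was less steady than that to IRS4. The part of the listed markers in the HLA-B and HLA-C results was not tested.

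**Figure D4:**
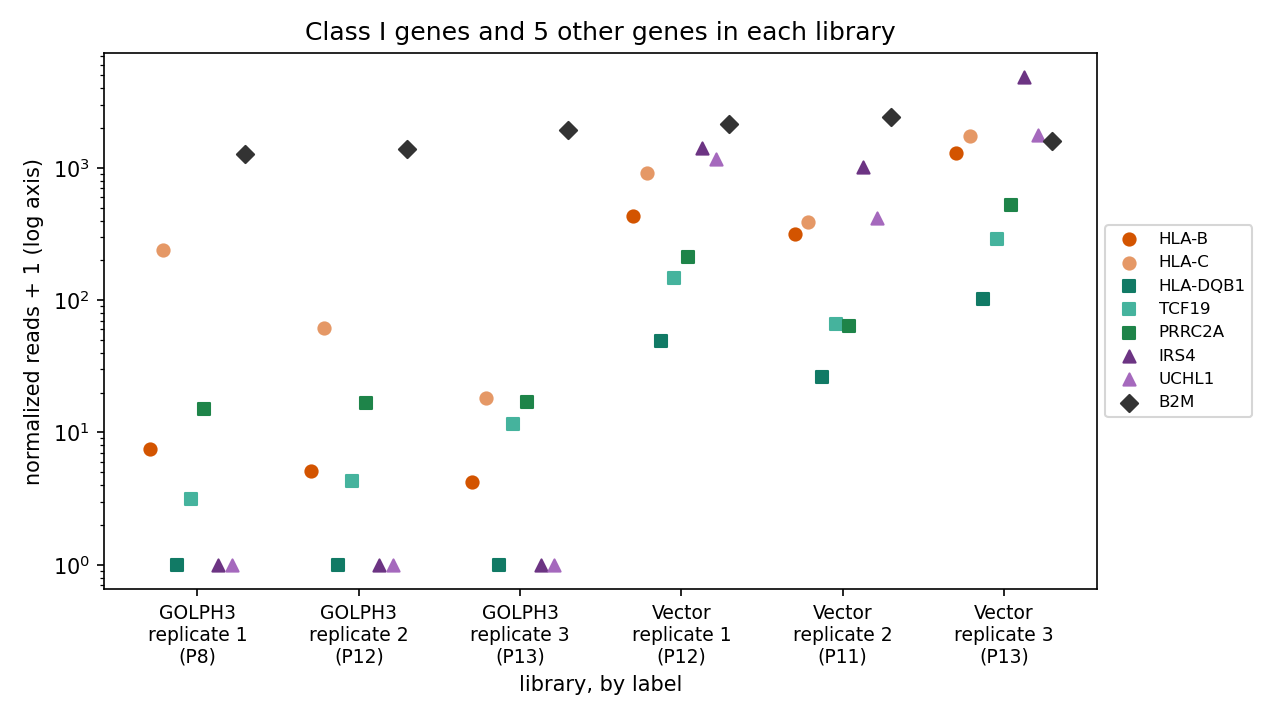
Normalized reads plus 1 (log axis) of HLA-B and HLA-C (circles), 3 other genes of the chromosome 6 stretch (squares), 2 embryonic kidney line markers (triangles) and B2M (diamonds) in each library by label. In the Vector-labelled libraries every gene drawn but B2M is highest in replicate 3, and HLA-DQB1, IRS4 and UCHL1 are at 0 in the GOLPH3-labelled libraries. The 2 markers drawn are among the 4 of 10 listed with the Vector order of HLA-B and HLA-C. Of the genes not drawn, VIM, LIN28B and EYA1 were highest in Vector replicate 1 and the stretch gene POU5F1 in Vector replicate 2.

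Markers of other cells gave few reads, apart from the collagen gene COL1A1. The summed level of 12 leukocyte markers was 41.2 to 79.0 normalized reads in the GOLPH3-labelled libraries and 54.8 to 109.9 in the Vector-labelled ones, with CD3E and TYROBP at 0 throughout. Of 8 fibroblast markers, 6 were tested and 1, PDGFRA, was called lower, beside 4.12% of all genes, and it passed the filter through the Vector-labelled libraries alone. Their sums were 825 to 1517 and 488 to 810, of which COL1A1 gave 800 to 1499 and 466 to 726, with DCN at 0 throughout. The 15 colon epithelial markers summed to 84614 to 159030 in the GOLPH3-labelled libraries and 39462 to 46497 in the Vector-labelled ones, and 4 of the 14 tested were called higher and 0 lower, beside 0.953% and 4.12% of all genes. The part of these lists in the class I results was not tested.

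The genes whose pattern over the 6 libraries was most like the members' mean profile lay on other chromosomes. Few genes of the chromosome 6 stretch had enough reads to be compared, so this location was largely set by the cut-off. Among 11612 protein-coding genes with a mean of at least 50 normalized reads, the highest Pearson correlations with the centred mean of the members on the log2 scale were those of EFNA5 (r = 0.998), AMOT (0.998), SH3RF3 (0.997), CCDC8 (0.997) and ALDH1A2 (0.996). With 6 libraries in groups of 3, 632 genes had r over 0.9, so these values describe a shared split between the groups and a shared order within it. AMOT, which binds the scaffold of tight junctions, had 259.8, 124.5 and 153.7 normalized reads in the GOLPH3-labelled libraries and 4740, 3225 and 12337 in the Vector-labelled ones.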

How the data were processed

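Total RNA of HCT-116 cells was sequenced in 6 libraries, 3 labelled GOLPH3 and 3 labelled Vector. The submitters' processing notes name fastp 0.20.0, HISAT2 2.1.0, featureCounts 1.6.1, Cufflinks and DESeq2 with GRCh38. The authors deposited 1 table of normalized signal per gene, and each value was a whole number of reads times 1 factor per library (100% of values whole within 0.1 reads). Rows that repeated 1 of 60546 identifiers (44 of 60590 rows) were added up. Coordinates came from GENCODE 29, which held 96.4% of the identifiers, and promoters from RefSeq.

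Genes with at least 1 normalized read in 3 libraries were tested with limma 3.58.1 (trend) in R 4.3.3 on log2(value + 1), adjusted by Benjamini-Hochberg and called at an adjusted p under 0.05. Alternatives were quantile and TMM scaling, other filters, a pseudocount of 0.1, edgeR 4.0.16 and DESeq2 1.42.0 on the recovered reads, blocks by replicate or P number, pairs of equal P number and libraries left out. Intervals and limits cover counting error or the spread between these libraries only.

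Named genes were the 9 members, called pathway genes or else the 2 with the smallest p per list, a set of regulators and partners, called genes of the stretch (at most 10) and the 5 genes nearest in pattern. BRD2, RPS18, RPS9, TUBB, GNL1, FLOT1, PSMB3, the interferon-stimulated genes and the marker genes were named after their values were seen. Some genes of these lists are not reported here. The members and lists were chosen with earlier results of these data known.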

Additional observations from a re-analysis of the deposited data

Results flagged for a closer look

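The 2 pairs of libraries with equal P numbers moved in opposite directions for 2 members. The log2 difference of HLA-E was -1.61 between the P12 libraries and 0.63 between the P13 libraries, from at most 8 reads in a library. That of B2M was -0.62 between the P12 libraries and 0.27 between the P13 libraries. Each pair is 1 library against 1, and the difference between the pairs was not tested.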

How the results depend on the processing

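HLA-B kept its direction and its side of the threshold in every fit tried, with log2 differences of -8.28 to -6.09 and adjusted p up to 0.000566. HLA-C lost its call in 2 fits, and TAP2 and B2M were not called in any. The number of members called was 2, and 1 to 2 when single libraries were left out (1 without Vector replicate 3) and 1 with both P12 libraries left out, an alternative chosen after seeing the data. HLA-E ran from -1.44 to 0.18 with single libraries left out, turning above 0 without GOLPH3 replicate 2, and turned to 0.0058 without both P12 libraries. The median of the members was -1.37 with no filter on low values, -2.97 with the filter in every library, -2.84 with edgeR, -1.73 with DESeq2 and -1.61 in the P12 pair, and -2.47 to -1.82 with single libraries left out. The pathway count of 5 became 0 with the filter in every library, 16 with the P number as a block and 1 without both P12 libraries, and ran from 1 to 4 with single libraries left out (1 without Vector replicate 3, 2 without Vector replicate 1, 3 without GOLPH3 replicate 2 or 3). The count over all genes, 1346, became 405, 6082 and 256 under the same 3 settings and 459 to 1528 with single libraries left out. The median covered 5 members in the main fit and the P12 pair, 6 with no filter and with DESeq2, and 4 with the filter in every library and with edgeR. With the P number as a block, only the P12 and P13 libraries bear on the difference between the groups. Beyond these differences in what was compared, the causes of the shifts were not tested.

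The replicate numbers did not pair the libraries: same-numbered libraries deviated from their group means with correlations of -0.232, -0.151 and 0.259. The P numbers join only 2 pairs, with correlations of 0.256 (P12) and 0.259 (P13), and the remaining libraries, P8 and P11, had 0.331 with each other, so the P number stayed an alternative. With the replicate number as a block 2 members, 3 pathway genes and 1081 genes in all were called.

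Low counts limit HLA-E, TAP2 and the libraries labelled GOLPH3 for HLA-B, and the 4 members at or near 0 have no usable level, in a stretch where widely used genes are near 0 as well.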
